A study of Homo sapiens with 9 samples.

Results

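CDK inhibitor and D-type cyclin genes were followed in haematopoietic cells grown out of the established human embryonic stem cell line H1. The members were the rows of the deposited count table whose symbol was CDKN1A, CDKN1B, CDKN1C, CDKN2A, CDKN2B, CDKN2C, CDKN2D, CCND1, CCND2 or CCND3, which makes 10 of 21229 genes. RNA was sequenced in 9 libraries, 3 from each of 3 groups: CD90+ cells with GATA2 overexpression, CD90+ control cells and CD38+ control cells. All came from the same H1 line and all were labelled haematopoietic. The sources used here give no promoter, vector or timing of the overexpression, no number of clones and no day of differentiation. Separate cultures are not mentioned for the replicates of any group, and p-values therefore cover only the spread among these libraries, which may be technical.

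D-type cyclins are the regulatory subunits of the kinases CDK4 and CDK6, which phosphorylate the retinoblastoma protein RB and so release E2F transcription factors at the entry into S phase. Inhibitors of the INK4 family (p16, p15, p18 and p19, from CDKN2A to CDKN2D) bind CDK4 and CDK6 and keep them from the cyclin, whereas those of the CIP/KIP family (p21, p27 and p57, from CDKN1A, CDKN1B and CDKN1C) bind complexes of cyclin and kinase, CDK2 complexes above all. In mouse bone marrow p57 and p27 are known for holding stem cells in quiescence, and mouse embryos without any D-type cyclin have severe defects of blood formation. Most of these proteins are also controlled by their breakdown, which RNA levels do not show.

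Assigned reads totalled 37500192 to 39582736 per library with GATA2 overexpression, 42577569 to 47261093 in CD90+ control and 42695005 to 45561088 in CD38+ control. GATA2 itself had 13870 to 14662 reads per library with overexpression, 4268 to 4936 in CD90+ control and 20716 to 23205 in CD38+ control, and the counts do not separate added from endogenous GATA2. THY1, which encodes CD90, had 103 to 138 reads with overexpression, 211 to 259 in CD90+ control and 0 in each CD38+ control library. The blood markers fixed as a list of 15 genes, among them PTPRC, SPN and RUNX1, were detected in every group and summed to 3487 to 3594, 3626 to 3649 and 8513 to 8811 CPM, in the order GATA2 overexpression, CD90+ control and CD38+ control. CPM are counts scaled to a common library size, here after TMM normalization, which offsets differences in RNA composition. A gene was called where the edgeR quasi-likelihood test gave an adjusted p under 0.05 (Benjamini-Hochberg, over 16232 genes), and all 10 members passed the filter on low counts. Every adjusted p below comes from that fit.

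The D-type cyclins and the inhibitors did not move as blocks across the 3 groups, although every called inhibitor fell in CD90+ against CD38+ control. CDKN1A, CDKN2B and CCND2 stepped down across the groups, lowest with GATA2 overexpression and highest in CD38+ control. CCND3, CDKN2A, CDKN2C, CDKN2D and CDKN1B were lowest in CD90+ control, and CCND1 was highest there. With the comparisons sharing their groups, the 3 sets of fold changes below are not independent of each other.

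**Figure D1:**
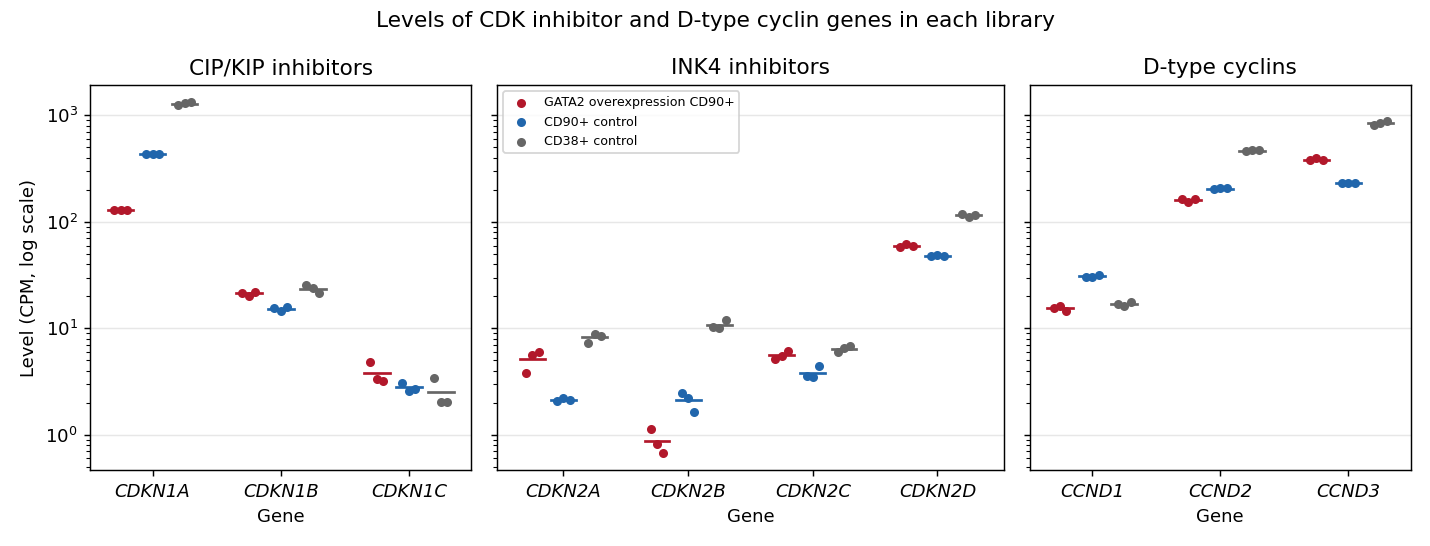
Levels of the 10 genes in each library in CPM on a log axis, by family; points are libraries, bars are group means of 3, and colours are the 3 groups. CDKN1A is lowest in GATA2 overexpression CD90+ libraries and highest in CD38+ control libraries, while CCND1 is highest in CD90+ control.

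CDKN1A encodes p21, an inhibitor of CDK2 complexes, and spans chromosome 6, 36676460 to 36687339 on the plus strand (GRCh38, ENSG00000124762.13). Its level was 128.98, 127.96 and 130.03 CPM with GATA2 overexpression, 433, 431 and 434 CPM in CD90+ control and 1256, 1300.5 and 1323 CPM in CD38+ control. Libraries of the 3 groups did not overlap, and each group lay at about the same distance from the next on the log scale. The fall was 3.35-fold in GATA2 overexpression against CD90+ control (log2 fold change -1.75 ± 0.03 SE, adjusted p = 1.01e-18). In CD90+ against CD38+ control it was 2.99-fold (-1.58 ± 0.02 SE, adjusted p = 7.14e-19), and in GATA2 overexpression against CD38+ control 10.02-fold (-3.33 ± 0.03 SE, adjusted p = 1.43e-22). The RefSeq promoter window of CDKN1A, the gene with the most reads of the 10 in both control groups, is printed 5′ to 3′ from 250 bases before to 50 after the annotated start (GRCh38.p14, chr6:36678464-36678763, plus strand), with the GC box GGGCGG in capitals.
CDKN1A promoter: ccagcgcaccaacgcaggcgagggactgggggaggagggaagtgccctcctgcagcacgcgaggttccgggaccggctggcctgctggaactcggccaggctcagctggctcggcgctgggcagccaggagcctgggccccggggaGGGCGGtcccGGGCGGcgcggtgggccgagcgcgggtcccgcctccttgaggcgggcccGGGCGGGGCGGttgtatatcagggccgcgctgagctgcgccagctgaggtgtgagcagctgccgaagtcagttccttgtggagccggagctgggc

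It held 4 matches of the GC box, the last 2 of them sharing a base, and a match on either strand occurred in 45.0% of 35116 RefSeq promoter windows. Neither the E-box CACGTG (7.26% of windows), the E2F words TTTCGCGC and TTTGGCGC (1.15%) nor the GATA words AGATAA or AGATAG and TGATAA or TGATAG (25%) was found in it on either strand. Windows were found for 7 of the 10 members, and CDKN1C, CCND1 and CCND2 had none.

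CDKN1B, which encodes p27 (chromosome 12, 12715058 to 12722371, plus strand, ENSG00000111276.10), differed far less. It stood at 21.5, 20.2 and 22.1 CPM with GATA2 overexpression, 15.4, 14.4 and 15.9 CPM in CD90+ control and 25.6, 23.7 and 21.4 CPM in CD38+ control. The CD90+ control libraries were the lowest, and the other groups overlapped. It rose 1.40-fold with GATA2 overexpression against CD90+ control (adjusted p = 1.49e-05) and fell 1.55-fold in CD90+ against CD38+ control (adjusted p = 5.55e-07). Between GATA2 overexpression and CD38+ control the log2 fold change was -0.15 ± 0.07 SE and was not called (adjusted p = 0.0731). That value turned to 0.01 with library size only and to 0.00 with upper-quartile factors, and it was called without CD38+ control replicate 3 (-0.21, adjusted p = 0.0169).

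CDKN1C, which encodes p57 and is expressed from the maternal allele of an imprinted domain (chromosome 11, 2883213 to 2885773, minus strand, ENSG00000129757.13), had few reads, 76 to 188 per library. Its levels were 4.86, 3.31 and 3.21 CPM with GATA2 overexpression, 3.08, 2.59 and 2.72 CPM in CD90+ control and 3.46, 2.03 and 2.05 CPM in CD38+ control. Replicate 1 was the highest library in every group, so the groups overlapped except that all GATA2 overexpression libraries lay above all CD90+ control ones. CDKN1C was called higher in GATA2 overexpression against CD38+ control (1.51-fold, log2 fold change 0.59 ± 0.22 SE, adjusted p = 0.0208). This call was lost without GATA2 overexpression replicate 1 (0.38, adjusted p = 0.131), CD38+ control replicate 2 (0.47, adjusted p = 0.0874) or CD38+ control replicate 3 (0.47, adjusted p = 0.0847). The difference between GATA2 overexpression and CD90+ control was 0.44 ± 0.22 SE (adjusted p = 0.0748). It was called without CD38+ control replicate 1 (0.44, adjusted p = 0.0343) or GATA2 overexpression replicate 3 (0.54, adjusted p = 0.0479). The difference was 0.16 ± 0.22 SE between CD90+ and CD38+ control (adjusted p = 0.529).

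Within the CIP/KIP family the transcript mix can be read inside each library, without any scaling between libraries. Divided by exon length, CDKN1A made up 83.8 ± 0.822% of the family's reads with GATA2 overexpression, 96.0 ± 0.175% in CD90+ control and 98.1 ± 0.267% in CD38+ control (SD, n = 3 each). CDKN1B made up 13.0 ± 0.430%, 3.19 ± 0.136% and 1.69 ± 0.188%, and CDKN1C 3.18 ± 0.745%, 0.802 ± 0.0710% and 0.247 ± 0.0867%, in the same order of groups. For each of the 3 genes the shares of the 3 groups did not overlap, and an exact two-sided permutation test of 3 against 3 cannot give a p below 0.1. Shares within a family are tied, so a lower level of CDKN1A by itself raises the other shares. The level of CDKN1B was 21.3 ± 0.974 CPM with GATA2 overexpression and 23.6 ± 2.06 CPM in CD38+ control, a difference that was not called. Summed over the family, levels were 154 ± 2.24 CPM with GATA2 overexpression, 451 ± 2.26 CPM in CD90+ control and 1319 ± 31.8 CPM in CD38+ control.

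CDKN2A and CDKN2B lie next to each other on the minus strand of chromosome 9, separated by 7601 bases (CDKN2A at 21967753 to 21995301, ENSG00000147889.17; CDKN2B at 22002903 to 22009363, ENSG00000147883.10; GRCh38). CDKN2A encodes p16 and, from a start farther upstream and another reading frame, p14ARF; gene counts do not tell these apart. CDKN2B encodes p15, which TGF-beta signalling is known to raise in epithelial cells. Both genes fell in CD90+ against CD38+ control, and they moved in opposite directions with GATA2 overexpression against CD90+ control. The promoter windows of the p14ARF start (chr9:21995275-21995574), the p16 start (chr9:21974808-21975107) and CDKN2B (chr9:22009256-22009555) are shown because the counts pool the first pair and because the neighbours parted (RefSeq, GRCh38.p14, minus strand, 5′ to 3′, GC box GGGCGG or its reverse complement CCGCCC in capitals).
CDKN2A promoter of p14ARF: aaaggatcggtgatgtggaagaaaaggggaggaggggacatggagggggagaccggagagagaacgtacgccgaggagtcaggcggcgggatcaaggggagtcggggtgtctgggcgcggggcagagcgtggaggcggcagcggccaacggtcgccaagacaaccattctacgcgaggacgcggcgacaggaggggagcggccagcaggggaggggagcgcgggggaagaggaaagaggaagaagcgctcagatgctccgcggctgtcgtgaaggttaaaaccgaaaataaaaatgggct
CDKN2A promoter of p16: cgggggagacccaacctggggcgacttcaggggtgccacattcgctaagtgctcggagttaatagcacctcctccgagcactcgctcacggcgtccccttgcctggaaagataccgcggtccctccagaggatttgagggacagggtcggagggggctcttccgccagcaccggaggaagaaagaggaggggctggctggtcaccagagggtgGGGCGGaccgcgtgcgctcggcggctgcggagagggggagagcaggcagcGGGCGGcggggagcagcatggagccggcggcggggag
CDKN2B promoter: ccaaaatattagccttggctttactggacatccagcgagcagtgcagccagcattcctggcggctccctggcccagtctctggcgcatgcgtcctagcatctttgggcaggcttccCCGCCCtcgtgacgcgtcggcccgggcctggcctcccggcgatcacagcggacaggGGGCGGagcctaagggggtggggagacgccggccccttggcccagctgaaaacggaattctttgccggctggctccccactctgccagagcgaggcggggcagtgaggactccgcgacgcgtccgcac

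The p16 window and the CDKN2B window held 2 GC boxes each and the p14ARF window 0, and none of the E-box, E2F or GATA words above occurred in them. CDKN2A stood at 3.85, 5.64 and 5.95 CPM with GATA2 overexpression, 2.06, 2.23 and 2.13 CPM in CD90+ control and 7.26, 8.82 and 8.56 CPM in CD38+ control. The 3 groups did not overlap, and GATA2 overexpression replicate 1 was the low library of its group. It rose 2.40-fold with GATA2 overexpression against CD90+ control (log2 fold change 1.26 ± 0.17 SE, adjusted p = 3.19e-06). It fell 1.60-fold in GATA2 overexpression against CD38+ control (adjusted p = 9.09e-04) and 3.83-fold in CD90+ against CD38+ control (adjusted p = 1.12e-08).

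CDKN2B stood at 1.14, 0.821 and 0.680 CPM with GATA2 overexpression, 2.49, 2.23 and 1.65 CPM in CD90+ control and 10.3, 10.1 and 11.9 CPM in CD38+ control. No group overlapped another, although the GATA2 overexpression values rest on 44, 31 and 25 reads. The fall was 2.41-fold in GATA2 overexpression against CD90+ control (log2 fold change -1.27 ± 0.21 SE, adjusted p = 3.70e-05), 12.2-fold in GATA2 overexpression against CD38+ control (adjusted p = 2.52e-11) and 5.06-fold in CD90+ against CD38+ control (adjusted p = 2.16e-09). By group means CDKN2B was thus the member with the widest range relative to its level, ahead of CDKN1A. This order is uncertain, as the log2 fold changes in GATA2 overexpression against CD38+ control were -3.61 ± 0.20 SE and -3.33 ± 0.03 SE. MTAP, the next gene of the locus and an enzyme of methionine salvage, rose 2.003-fold with GATA2 overexpression against CD90+ control (60.0 ± 1.35 against 30.0 ± 1.51 CPM, adjusted p = 5.39e-12) and 1.51-fold in CD90+ against CD38+ control (adjusted p = 1.40e-08). Of 4 tested neighbours and antisense genes of the locus MTAP rose and 0 fell with GATA2 overexpression against CD90+ control, 3 rose and 1 fell against CD38+ control, and 3 rose and 1 fell in CD90+ against CD38+ control. The antisense transcript CDKN2B-AS1 had 5, 0 and 0 reads with GATA2 overexpression, 0, 4 and 5 in CD90+ control and 12, 13 and 32 in CD38+ control. Its exons overlap those of CDKN2A by 341 bases on the other strand, and the counting is not stated to use strand.

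CDKN2C, which encodes p18 (chromosome 1, 50960745 to 50974633, plus strand, ENSG00000123080.10), stood at 5.11, 5.51 and 6.12 CPM with GATA2 overexpression, 3.59, 3.52 and 4.41 CPM in CD90+ control and 5.96, 6.60 and 6.83 CPM in CD38+ control. The CD90+ control libraries lay below both other groups, which overlapped each other. CDKN2C rose 1.45-fold with GATA2 overexpression against CD90+ control (adjusted p = 0.00214), a call lost with library size only (log2 fold change 0.29, adjusted p = 0.0685). It fell 1.68-fold in CD90+ against CD38+ control (adjusted p = 9.74e-05), and it was not called in GATA2 overexpression against CD38+ control (-0.21 ± 0.14 SE, adjusted p = 0.160).

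CDKN2D, which encodes p19 (chromosome 19, 10566462 to 10569059, minus strand, ENSG00000129355.6), was the main INK4 transcript in every group. It stood at 58.3, 61.9 and 58.8 CPM with GATA2 overexpression, 47.9, 48.7 and 47.4 CPM in CD90+ control and 118, 111 and 117 CPM in CD38+ control, without overlap. It fell 2.41-fold in CD90+ against CD38+ control (adjusted p = 3.91e-15) and 1.94-fold in GATA2 overexpression against CD38+ control (adjusted p = 1.38e-13). With GATA2 overexpression against CD90+ control it rose 1.24-fold (log2 fold change 0.31 ± 0.04 SE, adjusted p = 9.04e-07), a value that shrank to 0.07 with library size only (adjusted p = 0.127). Per kilobase of exon CDKN2D held 91.8 ± 0.892% of INK4 reads with GATA2 overexpression, 93.1 ± 0.216% in CD90+ control and 91.4 ± 0.695% in CD38+ control. CDKN2B held 0.507 ± 0.148%, 1.54 ± 0.305% and 3.17 ± 0.235% in the same order, and CDKN2A 3.76 ± 0.759%, 1.98 ± 0.0636% and 3.10 ± 0.375%. Without division by length the shares of CDKN2B were 1.24%, 3.79% and 7.62%, and those of CDKN2A 7.20%, 3.82% and 5.83%.

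CCND3 encodes cyclin D3, which mouse erythroid and lymphoid precursors are known to need, and spans chromosome 6, 41934933 to 42050357 on the minus strand (ENSG00000112576.12). It stood at 381, 396 and 378 CPM with GATA2 overexpression, 233, 234 and 234 CPM in CD90+ control and 815, 849 and 887 CPM in CD38+ control. No group overlapped another. CCND3 rose 1.65-fold with GATA2 overexpression against CD90+ control (log2 fold change 0.72 ± 0.03 SE, adjusted p = 5.69e-13). It fell 2.21-fold in GATA2 overexpression against CD38+ control (adjusted p = 4.37e-16) and 3.64-fold in CD90+ against CD38+ control (adjusted p = 1.50e-18).

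CCND2, which encodes cyclin D2 (chromosome 12, 4273772 to 4305350, plus strand, ENSG00000118971.7), stood at 166, 154 and 163 CPM with GATA2 overexpression, 203, 207 and 207 CPM in CD90+ control and 460.0, 469.6 and 473 CPM in CD38+ control. The order was that of CDKN1A, with a much smaller step between the CD90+ groups. The fall was 1.28-fold in GATA2 overexpression against CD90+ control (adjusted p = 2.90e-09), 2.90-fold in GATA2 overexpression against CD38+ control (adjusted p = 3.03e-18) and 2.27-fold in CD90+ against CD38+ control (adjusted p = 1.29e-16). Antisense CCND2-AS1, which shares 126 exonic bases with CCND2, had at most 34 reads in a library. AC008012.1, annotated as protein-coding on the same strand, shares 989 exonic bases with CCND2. It had no row in the count table, so its part in the CCND2 counts is not known.

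CCND1, which encodes cyclin D1, the D-type cyclin of many adherent cells (chromosome 11, 69641087 to 69654474, plus strand, ENSG00000110092.3), was highest in CD90+ control. It stood at 15.6, 16.1 and 14.7 CPM with GATA2 overexpression, 30.5, 30.3 and 31.5 CPM in CD90+ control and 16.9, 16.2 and 17.8 CPM in CD38+ control. CD90+ control libraries were far above both other groups, which lay close together without overlap. CCND1 rose 1.81-fold in CD90+ against CD38+ control (log2 fold change 0.86 ± 0.06 SE, adjusted p = 9.95e-10) and fell 1.99-fold in GATA2 overexpression against CD90+ control (-0.99 ± 0.06 SE, adjusted p = 1.70e-10). Between GATA2 overexpression and CD38+ control it was not called (-0.14 ± 0.06 SE, adjusted p = 0.0605), and that value turned to 0.03 with library size only and 0.01 with upper-quartile factors. It was called without CD38+ control replicate 2 (-0.17, adjusted p = 0.0402). CCND1 shares 497 exonic bases with LTO1 on the other strand, and LTO1 was not analysed here.

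**Figure D2:**
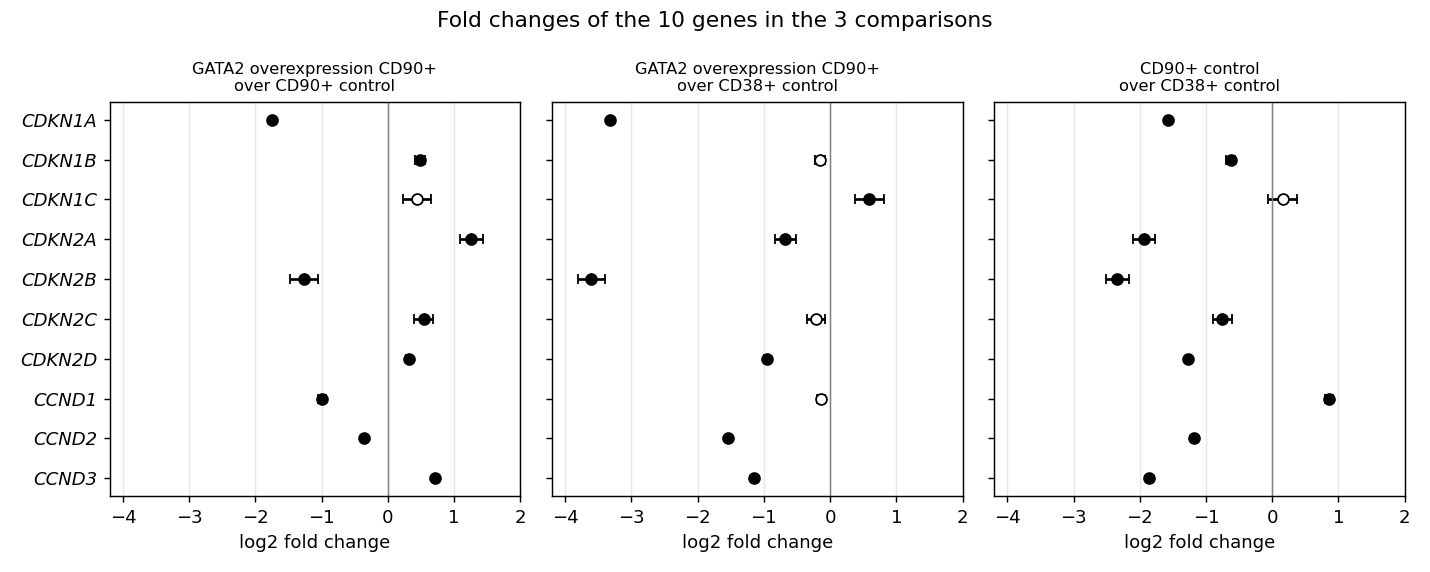
Log2 fold changes of the 10 genes in the 3 comparisons with their standard errors; filled points passed the adjusted p of 0.05 and open points did not. CDKN1A and CDKN2B lie left of 0 in all 3 panels, and CCND1 lies right of 0 in CD90+ over CD38+ control only.

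The mix of D-type cyclins changed along with their sum. Per kilobase of exon CCND3 held 77.5 ± 0.889% of the D-type cyclin reads with GATA2 overexpression, 60.5 ± 0.214% in CD90+ control and 73.9 ± 0.539% in CD38+ control. CCND2 held 19.7 ± 0.949%, 32.4 ± 0.192% and 24.7 ± 0.532%, and CCND1 held 2.78 ± 0.0944%, 7.12 ± 0.137% and 1.32 ± 0.0546%, in the same order of groups. The 3 groups did not overlap for any of these shares. Without division by length CCND3 held 68.6%, 49.7% and 63.7%, in the same order of groups. The summed level of the D-type cyclins was 561 ± 5.61 CPM with GATA2 overexpression, 470.4 ± 2.91 CPM in CD90+ control and 1335 ± 42.4 CPM in CD38+ control.

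**Figure D3:**
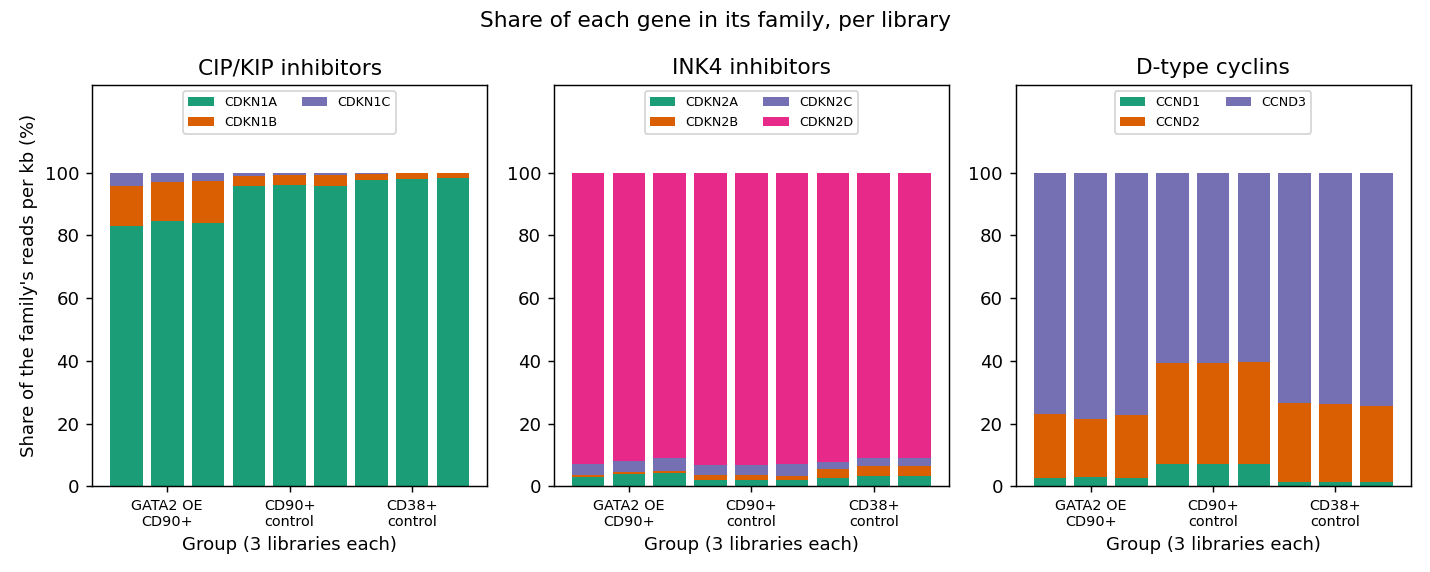
Share of each gene in its family's reads per kilobase of exon, in percent, for each library; the bars of a panel are the 3 libraries of GATA2 overexpression CD90+, CD90+ control and CD38+ control. CDKN1B and CDKN1C take their largest shares of CIP/KIP reads with GATA2 overexpression, and CCND1 takes its largest share of D-type cyclin reads in CD90+ control. Shares within a family are tied, so a larger share need not mean a higher level.

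Levels of different genes were compared per kilobase of exon. With GATA2 overexpression CCND3 led at 97.6 ± 2.43 CPM per kb, followed by CDKN1A at 51.4 ± 0.416, CDKN2D at 39.7 ± 1.30 and CCND2 at 24.8 ± 0.906. In CD90+ control CDKN1A led at 172 ± 0.565 CPM per kb, ahead of CCND3 at 59.3 ± 0.127, while CDKN2D at 31.9 ± 0.447 and CCND2 at 31.8 ± 0.347 did not differ beyond their spread. CD38+ control had CDKN1A at 515 ± 13.8 CPM per kb, CCND3 at 216 ± 9.05, CDKN2D at 77.0 ± 2.48 and CCND2 at 72.1 ± 1.02. Thus the leading transcript was CCND3 with GATA2 overexpression and CDKN1A in both control groups. CDKN1B and CCND1 lay between 3.5 and 8.87 CPM per kb in all groups, and CDKN1C, CDKN2A, CDKN2B and CDKN2C between 0.218 and 2.67. CDKN2B was the lowest with GATA2 overexpression and in CD90+ control, and CDKN1C in CD38+ control, where CDKN2A and CDKN2B did not differ beyond their spread.

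Counts of members are set against how common calls were among all tested genes. In GATA2 overexpression against CD90+ control 9 of 10 members were called, against 77.6% of all genes. Of these 5 rose and 4 fell, where 38.0% of all genes rose and 39.6% fell. A change of at least 2-fold was seen for 1 member that rose (CDKN2A) and 2 that fell (CDKN1A and CDKN2B), and such changes were found upward in 7.98% and downward in 21.4% of all genes. The median log2 fold change was 0.38 over the members and -0.04 over all genes. CCND1 fell just short of 2-fold (log2 fold change -0.99) and passed that size under some alternative settings, down to -1.24. Only 3 members rose with library size only, since CDKN2C and CDKN2D lost the call.

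In GATA2 overexpression against CD38+ control 7 members were called, 1 higher and 6 lower, against 83.2% of all genes called, 43.3% higher and 39.9% lower. Falls of at least 2-fold were found for 4 members (CDKN1A, CDKN2B, CCND2 and CCND3) and rises of that size for 0, against 21.2% and 23.0% of all genes. Under an alternative setting of the fit CCND3 fell less than 2-fold (log2 fold change -0.98). The median log2 fold change was -0.82 over the members and 0.07 over all genes.

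In CD90+ against CD38+ control 9 members were called, 1 higher (CCND1) and 8 lower, against 80.4% of all genes called, 41.1% higher and 39.3% lower. Falls of at least 2-fold were found for 6 members and rises of that size for 0, against 13.6% and 22.6% of all genes. CDKN2D (log2 fold change -0.86) and CCND2 (-0.77) fell less than 2-fold with library size only, as CCND2 did with upper-quartile factors (-0.92). The rise of CCND1 passed 2-fold with library size only (1.27) and with upper-quartile factors (1.12). The median was -1.23 over the members and 0.03 over all genes. With library size only, the all-gene median shifted by 0.41 in this comparison, by -0.25 in GATA2 overexpression against CD90+ control and by 0.16 in GATA2 overexpression against CD38+ control. With upper-quartile factors the shifts were 0.26, -0.11 and 0.15. Of all called genes 51.2% were higher in CD90+ than in CD38+ control, against 71.2% with library size only and 64.3% with upper-quartile factors. In GATA2 overexpression against CD90+ control 49.0% were higher, against 35.5% with library size only. The 8 falls in CD90+ against CD38+ control were also called with library size only, and CDKN1C was then called higher (0.56, adjusted p = 0.0266). The median over all 10 members was -0.82 with that scaling.

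Markers of other cell types differed between the same groups, and their part in these results was not tested. In bulk samples fewer cells of a type and less RNA per cell cannot be told apart. Macrophage markers (15 genes, C1QA and CD163 among them) summed to 1158 to 1219 CPM with GATA2 overexpression, 3926 to 3969 CPM in CD90+ control and 5431 to 5468 CPM in CD38+ control. This was the order seen for CDKN1A, CDKN2B and CCND2, and the sum of the 15 blood markers given above had it too. Of 14 tested macrophage markers 13 fell and 0 rose with GATA2 overexpression against either control. In CD90+ against CD38+ control 6 rose and 7 fell, so not all single markers shared the order of the sum. C1QA rose 15.8-fold (150.4 ± 2.08 against 9.50 ± 0.289 CPM) and CD14 fell 11.6-fold (29.6 ± 1.59 against 344 ± 11.3 CPM). Mesenchymal markers (14 genes) summed to 382 to 400.3 CPM, 1264 to 1278 CPM and 48.6 to 51.9 CPM in the same order, highest in CD90+ control as CCND1 was. Of these 12 fell and 1 rose in GATA2 overexpression against CD90+ control, and 13 rose and 0 fell in CD90+ against CD38+ control, where POSTN was at 0 reads in CD38+ cells. Epithelial and endoderm markers (12 genes) had the same order, at 715 to 722 CPM, 1131 to 1140.4 CPM and 359 to 374 CPM. Both sums were higher with GATA2 overexpression than in CD38+ control, whereas CCND1 was not called there (log2 fold change -0.14 ± 0.06 SE). Mast cell, basophil and eosinophil markers (11 genes) summed to 807 to 862 CPM, 245 to 256 CPM and 5674 to 5901 CPM, lowest in CD90+ control as CCND3 and CDKN2A were, and 10 of the 11 rose and 1 fell with GATA2 overexpression against CD90+ control. Erythroid markers ranged over 466 to 547, 857 to 882 and 251 to 260.2 CPM, megakaryocyte markers over 3855 to 3942, 2342 to 2379 and 477 to 483 CPM, and endothelial markers over 1433 to 1458.5, 1002 to 1027.5 and 893 to 963 CPM.

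CDK4 and CDK6, the kinases that D-type cyclins bind, were lowest in CD38+ control, where CCND2 and CCND3 were highest. CDK4 rose 2.26-fold with GATA2 overexpression against CD90+ control (343 ± 3.10 against 152 ± 2.48 CPM, adjusted p = 9.04e-17) and 1.40-fold in CD90+ against CD38+ control, where it stood at 108.5 ± 2.29 CPM (adjusted p = 1.47e-11). CDK6 rose 1.88-fold in GATA2 overexpression against CD38+ control (105 ± 3.44 against 55.8 ± 1.54 CPM, adjusted p = 1.41e-13). Of 15 tested partner kinases and G1/S cyclins 12 rose and 1 fell (CDC25B, 1.13-fold) with GATA2 overexpression against CD90+ control, 7 rose and 7 fell against CD38+ control, and 3 rose and 11 fell in CD90+ against CD38+ control. With library size only the counts were 9 and 2, 8 and 6, and 6 and 7 in the same order, and the median in CD90+ against CD38+ control was -0.18 in place of -0.59. For comparison with this and the other lists, 38.0% of all tested genes rose and 39.6% fell in GATA2 overexpression against CD90+ control. These shares were 43.3% and 39.9% in GATA2 overexpression against CD38+ control, and 41.1% and 39.3% in CD90+ against CD38+ control. The largest difference of the list was CCNA1, the cyclin A best known from the germ line and from myeloid cells, at 3.16 ± 0.239 CPM with GATA2 overexpression, 2.80 ± 0.0985 CPM in CD90+ control and 276 ± 3.87 CPM in CD38+ control. It was 98.8-fold lower in CD90+ than in CD38+ control (adjusted p = 5.25e-23). WEE1, a kinase that restrains CDK1, fell 2.60-fold in the same comparison.

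Of 19 RB and E2F genes 10 rose and 5 fell with GATA2 overexpression against CD90+ control, 4 rose and 12 fell against CD38+ control, and 5 rose and 14 fell in CD90+ against CD38+ control. The medians of 0.18 in the first and -0.37 in the last turned to -0.07 and 0.04 with library size only, where the counts were 8 rising and 9 falling in the first and 7 and 7 in the last. RB1, the pocket protein itself, fell 1.85-fold with GATA2 overexpression against CD90+ control (80.9 ± 2.35 against 150 ± 3.76 CPM, adjusted p = 5.79e-14). TFDP2, an E2F partner, rose 2.57-fold (adjusted p = 5.14e-14), and E2F5 rose 7.95-fold in GATA2 overexpression against CD38+ control (32.3 ± 3.25 against 4.05 ± 0.425 CPM).

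Of 25 replication genes under E2F control 24 rose and 0 fell with GATA2 overexpression against CD90+ control, with a median log2 fold change of 0.51 (21 and 1 with library size only). PCNA rose 2.22-fold (327 ± 4.43 against 147 ± 1.02 CPM) and TYMS 2.40-fold. Against CD38+ control 19 rose and 4 fell, and in CD90+ against CD38+ control 12 rose and 12 fell, where the median of -0.08 became 0.33 with library size only and 0.18 with upper-quartile factors. Of 22 mitotic genes 20 rose with GATA2 overexpression against CD90+ control and 1 fell (MKI67, 1.27-fold; 14 and 3 with library size only), and UBE2C rose 3.29-fold. In CD90+ against CD38+ control 18 of them fell and 2 rose (10 and 9 with library size only), and against CD38+ control 14 rose and 7 fell with GATA2 overexpression. For these lists the median of all genes was -0.04, 0.07 and 0.03 in GATA2 overexpression against CD90+ control, GATA2 overexpression against CD38+ control and CD90+ against CD38+ control.

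**Figure D4:**
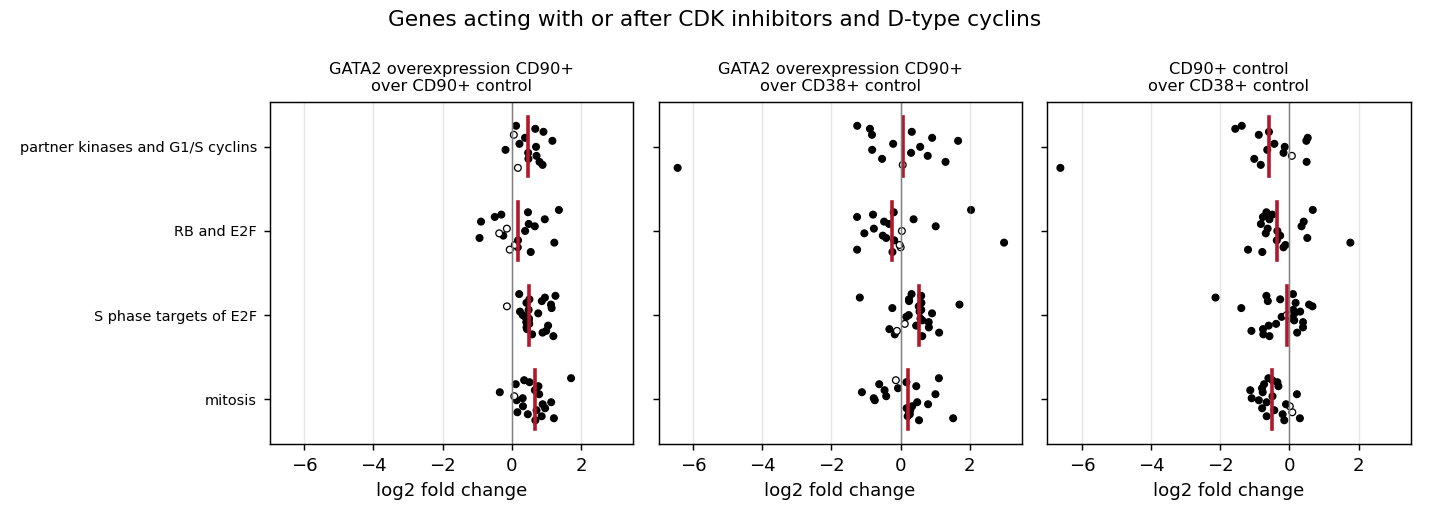
Log2 fold changes of single genes in 4 lists for the 3 comparisons; filled points were called, open points were not, and red bars are list medians. Replication and mitotic genes lie mostly right of 0 in GATA2 overexpression over CD90+ control.

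Among 24 genes that turn over inhibitors and D-type cyclins 12 rose and 9 fell with GATA2 overexpression against CD90+ control, 13 rose and 10 fell against CD38+ control, and 10 rose and 11 fell in CD90+ against CD38+ control. With library size only the counts were 7 and 12, 13 and 7, and 16 and 2 in the same order, and with upper-quartile factors 14 rose and 5 fell in the last. The median of 0.09 in the first became -0.15 with library size only and -0.02 with upper-quartile factors. SKP2, the ubiquitin ligase subunit that targets p27, stood at 82.2 ± 1.24 CPM with GATA2 overexpression, 61.6 ± 2.02 CPM in CD90+ control and 18.5 ± 0.880 CPM in CD38+ control, and rose 4.44-fold between the first and the last (adjusted p = 3.73e-17). Its cofactor CKS1B rose 2.51-fold with GATA2 overexpression against CD90+ control (451 ± 1.75 against 180.0 ± 4.11 CPM, adjusted p = 2.08e-17).

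Transcription factors that act on these genes, 31 in all, had 13 rising and 14 falling with GATA2 overexpression against CD90+ control, 16 and 14 against CD38+ control, and 15 and 13 in CD90+ against CD38+ control. Among all tested genes 38.0% rose and 39.6% fell in the first, near the shares of this list. The counts of the list depended on the scaling. With library size only 6 rose and 19 fell in the first, 16 and 14 in the second, and 21 rose and 6 fell in the last. The median of 0.01 in the first became -0.24 with library size only, -0.11 with upper-quartile factors and -0.04 with relative log expression factors. MYCN stood at 256 ± 11.2 CPM with GATA2 overexpression, 78.1 ± 0.742 CPM in CD90+ control and 7.82 ± 0.342 CPM in CD38+ control, the reverse order of CDKN1A. MXD1, which opposes MYC, fell 8.85-fold in GATA2 overexpression against CD38+ control. KLF4, known as an activator of CDKN1A, fell 6.35-fold in GATA2 overexpression against CD90+ control (17.0 ± 1.83 against 108 ± 3.07 CPM, adjusted p = 1.02e-16). Its mean over the 9 libraries was 58.6 CPM, so KLF4 was not highest in CD38+ control as CDKN1A was. FOS stood at 5404 ± 72.2 CPM with GATA2 overexpression, 4666 ± 36.2 CPM in CD90+ control and 413 ± 8.56 CPM in CD38+ control.

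Polycomb and trithorax genes known to act at the INK4 locus numbered 22, of which 6 rose and 10 fell with GATA2 overexpression against CD90+ control, 8 rose and 10 fell against CD38+ control (median -0.07, 0.09 with library size only and 0.08 with upper-quartile factors), and 11 rose and 7 fell in CD90+ against CD38+ control (16 and 5 with library size only). BMI1, a Polycomb subunit known to repress CDKN2A, fell 2.69-fold in CD90+ against CD38+ control (11.5 ± 0.243 against 31.0 ± 1.67 CPM, adjusted p = 1.94e-12). KDM2B, a histone demethylase of a Polycomb complex, fell 3.03-fold with GATA2 overexpression against CD90+ control (25.05 ± 0.611 against 76.0 ± 0.495 CPM, adjusted p = 6.21e-15). In the imprinted domain of CDKN1C 3 of 12 tested neighbours rose and 6 fell with GATA2 overexpression against CD90+ control, 3 rose and 7 fell against CD38+ control, and 4 rose and 7 fell in CD90+ against CD38+ control (median -0.40, and 0.02 with library size only). KCNQ1OT1, the antisense RNA known to silence CDKN1C on the paternal allele, stood at 36.5 ± 2.38 CPM with GATA2 overexpression, 61.9 ± 0.276 CPM in CD90+ control and 18.97 ± 0.0938 CPM in CD38+ control.

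The genes most like a member were those with the smallest root mean square distance of gene-centred log2 CPM over the 9 libraries, among 10612 other genes with a mean of at least 5 CPM. For CDKN1A they were RGCC at 0.0510, KBTBD8 at 0.0673 and PTAFR at 0.0815, and RGCC stood at 35.7 CPM with GATA2 overexpression, 117 CPM in CD90+ control and 363 CPM in CD38+ control. For CCND2 they were MSN at 0.0264, CD44 at 0.0373 and ZNF655 at 0.0471, and MSN stood at 496, 629 and 1469 CPM in the same order. For CCND1 they were GCLC at 0.0647, GOLGA1 at 0.0659 and EPSTI1 at 0.0728. CDKN1C had no gene as near, with CEP97 at 0.175, CDADC1 at 0.199 and POU2F1 at 0.203. The 9 libraries fall into 3 groups, so these distances rest mainly on 3 levels.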

How the data were processed

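Strand-specific libraries with paired reads were made from RNA of H1-derived cells, per the labels' protocols. The authors deposited raw counts of reads for each gene symbol, with no depth correction. HISAT2, featureCounts and hg38 are named in the submitters' processing notes; no version, annotation or strand setting is given in the sources used here. Groups came from the labels' titles.

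The main test was quasi-likelihood in edgeR (version 4.0.16, under R 4.3.3), fitted to the 3 group means in all 9 libraries together with TMM factors and no block. Low genes were removed by filterByExpr at 10 reads and a total of 15. TMM factors averaged 0.980 with GATA2 overexpression, 1.16 in CD90+ control and 0.876 in CD38+ control. Each standard error was taken from the fold change and its F statistic. Exon lengths are unions over GENCODE 29 basic transcripts on GRCh38, which need not be the authors' gene models. Replicate libraries differed beyond sampling noise (chi-square per degree of freedom 3.96 to 7.84). The procedure was also run on simulated data with few changed genes, balanced in direction, so that run does not bear on the scaling.

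The members and lists were chosen with earlier results of these data known. Named list genes are up to 2 called genes in each direction by lowest adjusted p. They have a mean of at least 5 CPM and groups that do not overlap. CDKN2B-AS1 and CCND2-AS1 were added as overlapping genes, and LTO1 and AC008012.1 are named for their overlap only. Likeness was computed for 4 members on log2 (CPM + 0.1). Of 306 list symbols 301 were in the table. The result of 1 list is not reported here. Sequences are from RefSeq. Alternatives were other scaling, filters, tools (DESeq2 1.42.0, limma voom 3.58.1), fits on 2 groups, a replicate block and leaving out each library.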

Additional observations from a re-analysis of the deposited data

How the results depend on the processing

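Counts of called members stayed within 1.5 times of the reported ones under all 18 alternatives: 7 to 10 in GATA2 overexpression against CD90+ control, 6 to 9 in GATA2 overexpression against CD38+ control and 9 to 10 in CD90+ against CD38+ control. Counts over all genes ranged over 11430 to 13125, 12151 to 14236 and 11722 to 14023. Of 30 fold changes of members 23 kept direction and side of the threshold under every alternative. The exceptions were those of CDKN1C in all 3 comparisons, CDKN1B and CCND1 in GATA2 overexpression against CD38+ control, and CDKN2C and CDKN2D in GATA2 overexpression against CD90+ control. CDKN1B reversed to 0.0148 with library size only and 0.00183 with upper-quartile factors, and CCND1 to 0.0255 and 0.0126; the cause was not tested. Both were called with the filter of at least 1 CPM in 3 libraries (adjusted p = 0.0472 and 0.0322). CDKN1C in GATA2 overexpression against CD90+ control was called in 4 alternatives (adjusted p 0.0343 to 0.428 over all), among them the replicate block (0.41, adjusted p = 0.0417).

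Same-numbered libraries did not deviate together across genes (correlations of deviations from group means of -0.117 to 0.00997 over 10620 genes). That gives no sign of a shared replicate effect, but it cannot show whether same-numbered libraries were prepared together. With the replicate block 10, 7 and 9 members and 12384, 13347 and 12889 genes were called in the 3 comparisons. Of the family shares 42 of 150 alternative values moved by more than 1 SD, all through the exon length used. Leaving out 1 of 3 libraries cannot move a mean by 1 SD, so only the alternatives of length could show such a move. A choice of length, over all annotated transcripts, was added after seeing the data. CDKN1C and CDKN2B are limited by depth, with at most 188 reads and as few as 25 reads in a library.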
